A study of Homo sapiens with 62 samples.

Results

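The positive transcription elongation factor P-TEFb and the proteins that hold or carry it were followed through 9 genes: the kinase CDK9, its cyclins CCNT1 and CCNT2, the inhibitors HEXIM1 and HEXIM2, the 7SK-binding proteins LARP7 and MEPCE, and the scaffolds AFF1 and AFF4. They were listed by name, and all 9 had a row among the 29794 genes counted in each cell line. P-TEFb is the kinase of CDK9 with cyclin T1 or T2, and it phosphorylates paused RNA polymerase II and its pausing factors so that transcription can go on into the gene body. Much of it is normally kept inactive in the 7SK small nuclear ribonucleoprotein, in which MEPCE caps the 7SK RNA, LARP7 binds its end and HEXIM1 or HEXIM2 blocks the kinase. AFF1 and AFF4 are the scaffolds of the super elongation complexes that bring the active kinase to genes.

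The measurements came from SLAM-seq, in which cells take up 4-thiouridine (4sU), here for the last 2 h of treatment, and RNA made in that time is read as carrying T>C conversions. There were 62 libraries in 12 groups from 2 human pancreatic cancer lines, AsPC-1, a model of the classical subtype, and T3M-4, a model of the basal-like subtype. Every group, the controls included, had the genotype FKBP12-F36V-FLAG-KLF5_sgEndogenousKLF5: the endogenous gene of the transcription factor KLF5 was targeted by a guide and an introduced, degradable and FLAG-tagged KLF5 took its place. After 4 h, AsPC-1 gave 10 libraries with the KLF5 degrader dTAGv1 and 10 with its inactive analogue NEG, 5 with CB6644 (CB-6644, which inhibits RUVBL1/2), 4 with NVP2 (NVP-2, a CDK9 inhibitor) and 5 with the solvent DMSO. After 12 h it gave 4 libraries with CB-6644 and 4 with DMSO. T3M-4 gave 4 libraries for each of the same 5 treatments at 4 h. Libraries are named by their replicate numbers, such as 1.2, in which the leading number was taken as the experiment. The labels also give a batch. Within AsPC-1, NVP-2 and DMSO at 4 h lie in different batches, so their difference and that of the batches cannot be told apart in that contrast. The counts of members called after NVP-2 in AsPC-1 are therefore also given against controls of the NVP-2 batch. So are the members' T>C CPM changes, HEXIM2 apart. The other elongation genes are given against DMSO at 4 h only. T3M-4 had both batches in every group. The labels do not say whether libraries came from separate cultures, so p-values measure the spread between libraries.

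Depth ran from 2240998 to 18311982 T>C reads in AsPC-1 libraries and from 3714015 to 27982537 in T3M-4 libraries, against 82676553 to 200298262 and 111132257 to 244524608 reads in all. The lines matched their labels: the median all-reads level of HNF4A, a classical-subtype factor, was 15.1 CPM (read counts scaled to a common library total) in AsPC-1 and 0.188 CPM in T3M-4, and that of TP63, a basal-like factor, was 0 and 27.4 CPM. EPCAM and the keratins KRT8, KRT18 and KRT19 were detected in every library of both lines. Markers of other cells were near 0, PTPRC reaching at most 0.663 CPM and PECAM1 0.475 CPM, apart from COL1A1 at 4.06 to 8.79 CPM in T3M-4. The share of T>C reads in the whole library fell to 1.35 to 1.91% after NVP-2 in AsPC-1, from 9.36 to 10.6% in DMSO, and to 1.80 to 2.80% in T3M-4, from 11.1 to 14.1%. Without a spike-in or an unlabelled library, new RNA per cell and conversions unrelated to 4sU were not measured.

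Each gene was therefore described by 3 quantities. The T>C CPM is a gene's T>C reads on the CPM scale, over the T>C reads of the library with TMM-scaled library sizes, a level relative to the other new RNA of the same library. The labelled share is the percentage of a gene's reads that carried conversions. The all-reads CPM holds old and new RNA together. Changes are log2 fold changes with the standard error (SE) from edgeR's quasi-likelihood test, fitted over all genes, and a gene was called at a Benjamini-Hochberg adjusted p under 0.05. All 9 genes passed the filter on low counts in every contrast. Read levels are compared here within a gene and not between genes.

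The promoters of 3 genes are shown because they belong to genes at different places in the NVP-2 response described below: CDK9, whose labelled share fell most of the members after HEXIM2, HEXIM1, which lay near the median of all genes, and AFF4, whose share fell least in AsPC-1. They were taken from RefSeq (GRCh38.p14), which held 15 promoters for the 9 genes, each of 250 bases before to 50 after the start of transcription. Capitals mark the TATA box letters TATAAA, the GC box GGGCGG and the E-box CACGTG, searched on both strands with no overlap between these motifs.
CDK9, chr9:127785784-127786083, plus strand: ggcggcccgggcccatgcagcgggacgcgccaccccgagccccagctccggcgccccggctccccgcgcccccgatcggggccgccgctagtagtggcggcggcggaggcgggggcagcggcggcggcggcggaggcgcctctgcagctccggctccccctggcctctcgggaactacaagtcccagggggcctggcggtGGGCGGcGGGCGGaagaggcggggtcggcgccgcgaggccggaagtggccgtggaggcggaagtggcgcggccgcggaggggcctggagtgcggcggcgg
HEXIM1, chr17:45148225-45148524, plus strand: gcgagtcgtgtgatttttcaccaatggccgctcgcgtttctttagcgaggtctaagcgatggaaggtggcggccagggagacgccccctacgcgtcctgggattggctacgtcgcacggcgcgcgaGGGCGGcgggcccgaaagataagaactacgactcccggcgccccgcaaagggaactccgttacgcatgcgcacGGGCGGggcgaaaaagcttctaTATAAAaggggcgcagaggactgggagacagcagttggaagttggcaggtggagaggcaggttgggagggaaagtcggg
AFF4, chr5:132963585-132963884, minus strand: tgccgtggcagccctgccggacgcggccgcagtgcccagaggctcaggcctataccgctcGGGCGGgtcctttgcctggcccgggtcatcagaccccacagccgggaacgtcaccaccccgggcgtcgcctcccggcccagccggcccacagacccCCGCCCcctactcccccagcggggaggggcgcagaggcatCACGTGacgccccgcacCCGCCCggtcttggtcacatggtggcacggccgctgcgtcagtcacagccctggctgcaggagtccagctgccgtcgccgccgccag
The GC content was 82.0% for CDK9, 62.0% for HEXIM1 and 74.7% for AFF4, against a median of 58.7% over 35116 promoters. TATAAA was found in 1 of the 15 promoters, that of HEXIM1, 29 bases before the start, and in 11.5% of all promoters. GGGCGG was found in 11 of the 15 and in 45.0% of all promoters, and CACGTG in 3 of the 15, those of CCNT1, MEPCE and AFF4, and in 7.26% of all.

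Under DMSO the 9 transcripts differed in how much of their pool was new. The cyclin transcripts had the highest labelled shares. CCNT2 was at 54.3% ± 0.990 (SD, n = 5) in AsPC-1 and 69.7% ± 2.09 (n = 4) in T3M-4, followed by CCNT1 at 41.3% ± 3.14 and 61.5% ± 2.65, and the ranges of these genes did not overlap each other in either line. In T3M-4 they overlapped no other member, while in AsPC-1 CCNT1 (38.0 to 45.2%) overlapped HEXIM1 (27.8 to 41.8%). LARP7 had the lowest share, 12.2% ± 1.46 in AsPC-1 and 17.4% ± 1.60 in T3M-4. The other 6 genes lay between, in AsPC-1 with means of 17.7% (HEXIM2) to 34.8% (CDK9) and in T3M-4 of 28.7% (AFF1) to 38.7% (HEXIM1), and each overlapped its neighbours in the order within that set. In AsPC-1 HEXIM2, whose share ran from 6.90 to 31.7%, also overlapped LARP7. The shares of LARP7 rest on counts over 31 distinct 3′UTR pieces that overlap in the annotation, so a read can be counted more than once.

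Between the lines, no labelled share was called: 0 of 9 genes in DMSO at an adjusted p under 0.05, beside 0.41% of all genes in either direction, with 2 of 9 at an unadjusted p under 0.05 (CCNT1 and LARP7, both higher in T3M-4); no other tool was run on this comparison. All reads did differ. HEXIM1 was higher in T3M-4 by 0.63 (SE 0.25, adjusted p = 0.0433), beside 29.7% of all genes called higher. CCNT2 was lower by 1.39 on the log2 scale (SE 0.25, adjusted p = 0.000202), AFF1 by 0.79 (SE 0.20, adjusted p = 0.00326), AFF4 by 0.70 (SE 0.21, adjusted p = 0.0108) and MEPCE by 0.61 (SE 0.23, adjusted p = 0.0373), beside 22.6% of all genes called lower. These DMSO groups were partly prepared in different batches.

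NVP-2, the inhibitor of the kinase that CDK9 encodes, lowered the labelled share of all 9 transcripts in both lines. This is the change of most genes: 96% of all genes tested were called lower in AsPC-1 and 91.2% in T3M-4, with medians over all genes of −3.03 and −2.97 on the log2 scale. The members differed in how far they lay from that median. CDK9, LARP7 and MEPCE lay below the median gene in both lines, with log2 changes from −4.51 to −5.82. AFF4 lay above it, at −1.94 (SE 0.27) in AsPC-1 and −2.23 (SE 0.47) in T3M-4. AFF1 was at −2.76 (SE 0.32) in AsPC-1, within its SE of the median, and at −1.94 (SE 0.37) in T3M-4. CCNT1 was at −2.34 (SE 0.19) in AsPC-1 and near the median at −3.19 (SE 0.35) in T3M-4, and CCNT2 and HEXIM1 lay near it in both lines, from −3.23 to −3.37. These distances from the median were not tested. With either set of batch-2 controls, 9 of 9 were called lower in share in AsPC-1. Relative to the remaining new RNA, 7 of 9 genes were called lower in AsPC-1 in T>C CPM and 6 of 9 in T3M-4, and edgeR called 0 of 9 higher in either line. The lower counts, like those in share, include HEXIM2, whose calls depend on the repeated counting of its reads described below. They also include CDK9, which passed the filter on low counts only through its DMSO libraries. At an unadjusted p under 0.05, 0 of 9 were higher in AsPC-1 and 1 of 9, AFF1, in T3M-4, where DESeq2 called it. With counts summed per experiment, which leaves 2 against 2, 3 of 9 were called lower in AsPC-1 and 0 of 9 in T3M-4, where 0 of all genes were called. With batch-2 controls the AsPC-1 count was 7 of 9 (DMSO at 12 h) and 6 of 9 (NEG of experiment 3). Within T3M-4 it was 3 of 9 in batch 1 alone, without CCNT1, CCNT2 and HEXIM2, and 4 of 9 in batch 2 alone, without CDK9 and CCNT2. Over all genes, 17.6% were called lower and 12.9% higher in AsPC-1, and 14.2% lower and 12.4% higher in T3M-4. These shares belong to the fits of all NVP-2 and DMSO libraries at 4 h. For the single-batch fits, the batch-2 controls and the summed counts in AsPC-1 the shares of all genes are not given. The member counts of those fits therefore do not show whether the members differ from other genes. The median T>C CPM change of the 9 genes was −1.50 in AsPC-1 and −1.48 in T3M-4, and that of all genes −0.05 and −0.12.

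**Figure D1:**
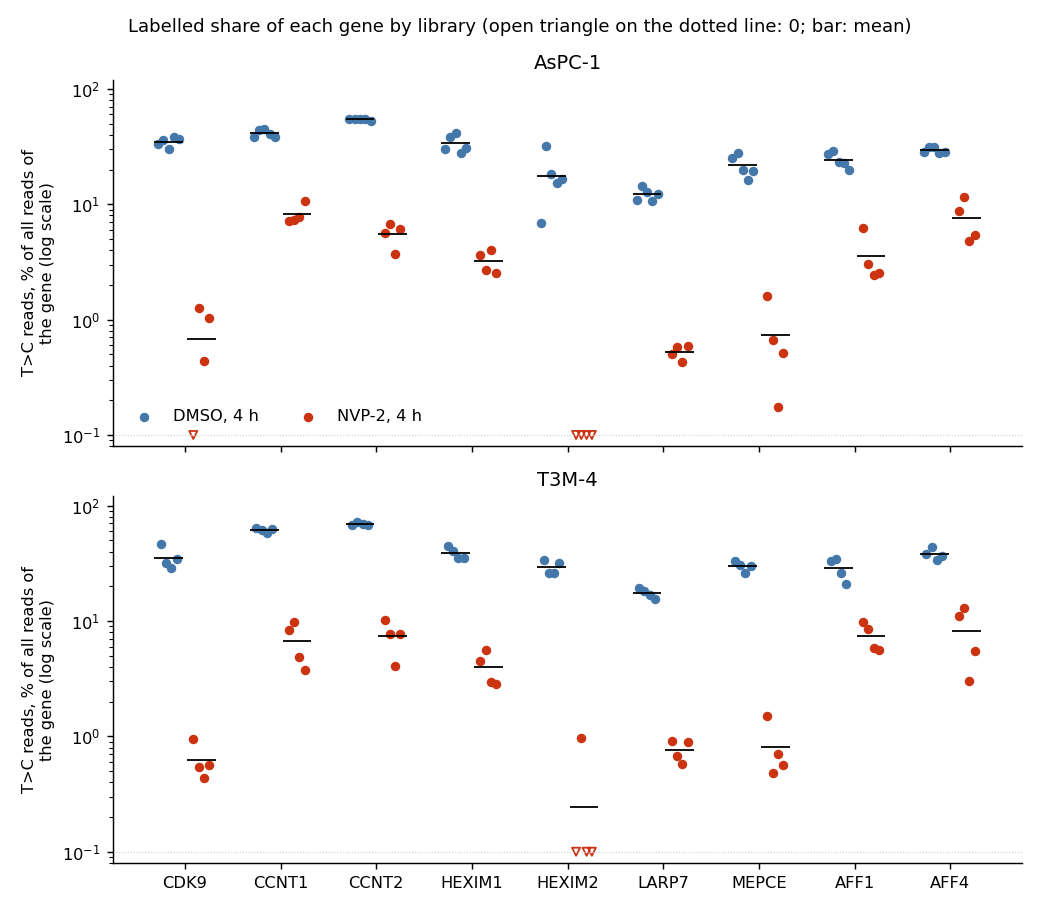
Labelled share of each of the 9 genes (percentage of its reads with conversions, log scale) in each DMSO and NVP-2 library at 4 h, AsPC-1 above and T3M-4 below; points are libraries, bars are means and open triangles on the dotted line are libraries with 0 T>C reads. For every gene and in both lines all 4 NVP-2 libraries lie below all DMSO libraries. The labelled share was called lower for 96% of all genes in AsPC-1 and 91.2% in T3M-4. How many of all genes separate without overlap was not counted.

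CDK9, the catalytic subunit, has 1 annotated 3′UTR piece and lies at chr9:127785679-127790792 on the plus strand (GRCh38). Its T>C CPM in AsPC-1 was 3.76, 5.01, 2.96, 5.56 and 6.14 in the DMSO libraries and 0, 0.466, 0.469 and 0.630 in the NVP-2 libraries. In T3M-4 it was 5.08, 4.00, 7.23 and 9.32 under DMSO and 0.880, 0.462, 1.12 and 1.74 under NVP-2. The groups did not overlap in either line, and the log2 changes were −3.53 (SE 0.74, adjusted p = 0.00424) and −2.62 (SE 0.65, adjusted p = 0.0140). The T3M-4 call was lost without DMSO library 2.2 (−2.36, adjusted p = 0.0527).

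These CDK9 values rest on few reads, 0 to 1 T>C reads per NVP-2 library in AsPC-1 and 2 to 4 in T3M-4. CDK9 passed the filter on low counts only through its DMSO libraries, at 29 to 75 and 72 to 214 T>C reads. Its calls and fitted sizes are therefore weak support. Summed over libraries, 3 of 490 CDK9 reads carried conversions after NVP-2 in AsPC-1, a labelled share of 0.612% with an exact (Clopper-Pearson) 95% interval of 0.126 to 1.78%, against 261 of 736 reads (35.5%, 32.0 to 39.0%) under DMSO. The share was 57.9-fold lower, with a counting interval of 19.6 to 283. In T3M-4 it was 12 of 2087 reads (0.575%, 0.297 to 1.00%) against 557 of 1607 (34.7%, 32.3 to 37.0%), 60.3-fold lower (34.2 to 117). Intervals cover counting error only. The fitted changes of the share were −5.60 (SE 0.60, adjusted p = 1.43e-06) and −5.82 (SE 0.62, adjusted p = 1.48e-05), at percentiles 1.78 and 1.92 of all genes tested. All reads of CDK9 did not pass the test, at −0.78 (SE 0.36, adjusted p = 0.189) in AsPC-1 and 0.35 (SE 0.34, adjusted p = 0.654) in T3M-4. With batch-2 controls in AsPC-1 the T>C CPM change was −2.85 (adjusted p = 0.0279, DMSO at 12 h) and −3.04 (adjusted p = 0.0162, NEG of experiment 3).

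CCNT1 and CCNT2 encode cyclins T1 and T2, the regulatory subunits that activate CDK9. CCNT1 lies at chr12:48688458-48716998 on the minus strand and CCNT2 at chr2:134918235-134959342 on the plus strand. CCNT1 T>C CPM in AsPC-1 was 125, 111, 149, 117 and 127 under DMSO and 59.3, 84.3, 53.5 and 88.9 under NVP-2. T3M-4 gave 120, 102, 114 and 117, and 64.2, 42.9, 28.0 and 21.7. Every NVP-2 library was below every DMSO library of its line, by −0.75 (SE 0.23, adjusted p = 0.0270) and −1.48 (SE 0.36, adjusted p = 0.0121). The AsPC-1 call was lost with the NEG controls of batch 2 (−0.66, adjusted p = 0.0748), but not with the DMSO controls of batch 2 (−0.85, adjusted p = 0.0350). It was also lost without DMSO library 1.1, 1.3, 2.1 or 2.2 or NVP-2 library 1.1 or 2.1 (−0.64 to −0.76, adjusted p = 0.0510 to 0.0669).

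CCNT2 T>C CPM was 154, 142, 159, 193 and 217 under DMSO in AsPC-1 and 61.8, 84.8, 27.2 and 59.3 under NVP-2. The T3M-4 libraries had 65.1, 62.0, 75.0 and 73.2 under DMSO and 38.4, 27.0, 10.8 and 29.6 under NVP-2. The groups again did not overlap, and the changes were −1.50 (SE 0.31, adjusted p = 0.00390) and −1.34 (SE 0.38, adjusted p = 0.0232). With batch-2 controls the AsPC-1 value was −1.23 and −1.33 (adjusted p = 0.0219 and 0.0133). The T3M-4 call was lost without DMSO library 1.1, 2.1 or 2.2 (−1.27 to −1.35, adjusted p = 0.0532 to 0.0646). The all-reads changes of the cyclins were the lowest of the 9 genes in each line. CCNT1 all reads fell from 30.6 ± 3.84 to 11.3 ± 2.85 CPM in AsPC-1 (−1.41, SE 0.21, adjusted p = 0.00188) and from 23.9 ± 2.72 to 10.6 ± 3.68 in T3M-4 (−1.16, SE 0.23, adjusted p = 0.0215). CCNT2 all reads fell from 31.6 ± 3.86 to 13.2 ± 3.89 CPM in AsPC-1 (−1.23, SE 0.22, adjusted p = 0.00526). In T3M-4 they went from 12.7 ± 0.915 to 6.40 ± 2.37 (−0.99, SE 0.26, adjusted p = 0.0704), which did not pass. It passed with a replicate block (−1.06, adjusted p = 0.0162), that is with the replicate number as a term of the fit, with DESeq2 (−0.97, adjusted p = 0.0125) and within batch 2 alone (−1.52, adjusted p = 0.00783), and not within batch 1 alone (−0.67, adjusted p = 0.214). These are the 2 transcripts with the highest labelled share under DMSO. Whether the all-reads change follows that share was not tested.

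In all reads, 3 of 9 genes were called lower in AsPC-1 (CCNT1, CCNT2 and HEXIM1), beside 8.39% of all genes, and 2 of 9 in T3M-4 (CCNT1 and MEPCE), beside 4.91%. With either set of batch-2 controls the AsPC-1 count was 2 of 9, without HEXIM1. In T3M-4 it was 3 of 9 with the replicate block, 0 of 9 within batch 1 and 5 of 9 within batch 2, where CCNT2, HEXIM1 and LARP7 were added. The shares of all genes given here are those of the reported fits, and none is given for these alternatives. Their counts therefore do not show whether the members differ from other genes, and may follow how many genes each fit called.

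**Figure D2:**
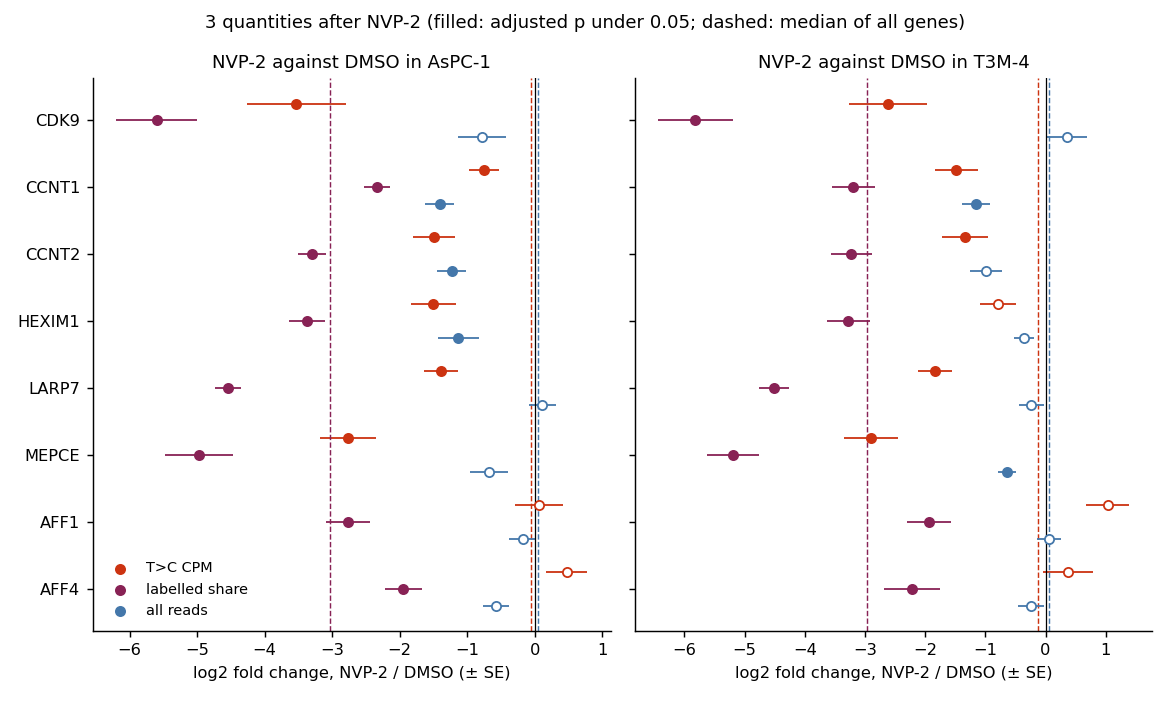
Log2 fold change (NVP-2 over DMSO, ± SE) of 8 of the genes in T>C CPM, labelled share and all reads, in AsPC-1 (left) and T3M-4 (right); filled points passed an adjusted p under 0.05 and dashed lines are the medians of all genes. HEXIM2 is left out because its fitted values rest on libraries with 0 reads. CDK9 rests on 0 to 1 T>C reads per NVP-2 library in AsPC-1 and 2 to 4 in T3M-4. AFF1 and AFF4 lie at or right of 0 in T>C CPM, and CDK9, LARP7 and MEPCE lie left of the share median in both lines.

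HEXIM1 and HEXIM2 encode the inhibitors that bind 7SK RNA and block the kinase, and they lie near each other on chromosome 17, at chr17:45148475-45152099 and chr17:45160700-45170040 on the plus strand. HEXIM1 T>C CPM in AsPC-1 was 28.5, 38.5, 20.3, 29.7 and 36.1 under DMSO and 12.8, 11.2, 11.3 and 5.67 under NVP-2. In T3M-4 it was 38.5, 39.8, 54.7 and 48.0 under DMSO and 21.1, 29.3, 29.1 and 22.6 under NVP-2. No library overlapped the other group. The change was called in AsPC-1 (−1.50, SE 0.33, adjusted p = 0.00571; −1.46 and −1.43 with batch-2 controls, adjusted p = 0.0256 and 0.0402) and not in T3M-4 (−0.78, SE 0.30, adjusted p = 0.0759), where DESeq2 called it (−0.73, adjusted p = 0.0154). The difference between the lines was 0.69 (SE 0.44, adjusted p = 0.524). In AsPC-1 the labelled share fell from 33.7% ± 5.90 to 3.21% ± 0.715, and in T3M-4 from 38.7% ± 4.60 to 3.98% ± 1.33, changes of −3.37 (SE 0.27) and −3.28 (SE 0.36) that were near the median of all genes. In all reads HEXIM1 fell by 1.13 (SE 0.30, adjusted p = 0.0342) in AsPC-1, with DMSO libraries at 5.18 to 11.0 CPM and NVP-2 libraries at 2.43 to 5.52, which overlap. This call was lost with the batch-2 controls (−1.13 and −1.17, adjusted p = 0.154 and 0.153), and the T3M-4 value was −0.36 (SE 0.17, adjusted p = 0.331).

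For HEXIM2 every deposited count was a multiple of 8, the number of annotation records over its 2 distinct 3′UTR pieces, so its counts are given here divided by 8. After NVP-2, 0 of 241 reads in AsPC-1 carried conversions, which allows a share of up to 1.24% at a floor of 3 counts over the group (exact 95% upper limit 1.52%), against 49 of 242 reads (20.2%, exact interval 15.4 to 25.9%) under DMSO. A share at that floor of 3 counts would be 16.3-fold below the DMSO share, a value that leaves out the counting error of both groups. In T3M-4 it was 1 of 423 reads (0.236%, 0.00599 to 1.31%) against 100 of 345 (29.0%, 24.3 to 34.1%), 123-fold lower with a counting interval of 21.5 to 4891. All reads of HEXIM2 did not pass the test in either line, at −0.11 (SE 0.39, adjusted p = 0.891) and 0.20 (SE 0.35, adjusted p = 0.823). With the deposited counts HEXIM2 was among the genes called lower in T>C CPM and share in both lines. With counts divided by 8 it no longer passed the filter on low counts in these fits, so its calls depend on the repeated counting. In AsPC-1 it did not pass that filter without DMSO library 1.2, 2.1 or 2.2 either.

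LARP7 and MEPCE encode the proteins bound to 7SK RNA throughout its life, LARP7 at chr4:112637077-112657696 and MEPCE, its capping enzyme, at chr7:100428322-100434126, both on the plus strand. LARP7 T>C CPM in AsPC-1 was 686, 683, 778, 556 and 769 under DMSO and 249, 312, 144 and 301 under NVP-2. Its T3M-4 libraries ranged from 865 to 1167 under DMSO and from 182 to 363 under NVP-2. The changes were −1.39 (SE 0.25, adjusted p = 0.00193) and −1.83 (SE 0.28, adjusted p = 0.00141), with no overlap. With batch-2 controls the AsPC-1 value was −1.44 and −1.29 (adjusted p = 0.00667 and 0.00520). The labelled share fell from 12.2% ± 1.46 to 0.525% ± 0.0753 in AsPC-1, a 23.3-fold change, and from 17.4% ± 1.60 to 0.763% ± 0.167 in T3M-4, 22.8-fold. All reads of LARP7 were at 570 ± 77.2 and 605 ± 155 CPM in AsPC-1 (0.11, SE 0.20, adjusted p = 0.774). In T3M-4 they were 742 ± 127 and 627 ± 145 CPM (−0.24, SE 0.20, adjusted p = 0.615). LARP7 had the smallest labelled share under DMSO, and its all reads were not called in either line. A link between the share and the all-reads change was not tested.

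MEPCE T>C CPM in AsPC-1 was 124, 200, 121, 165 and 155 under DMSO and 23.0, 30.7, 5.63 and 26.5 under NVP-2. T3M-4 libraries held 100, 92.5, 130 and 138 under DMSO and 26.1, 5.54, 15.7 and 13.0 under NVP-2. The highest NVP-2 library was far below the lowest DMSO library in each line. The changes, −2.76 (SE 0.41, adjusted p = 0.000638) and −2.90 (SE 0.45, adjusted p = 0.00140), had the smallest adjusted p of the 9 genes in each line, and with batch-2 controls the AsPC-1 value was −3.42 and −3.17. In AsPC-1 its share fell from 21.7% ± 4.76 to 0.735% ± 0.605, and in T3M-4 from 29.9% ± 2.93 to 0.815% ± 0.471, at percentiles 4.04 and 3.72 of all genes tested. All reads of MEPCE gave −0.67 in AsPC-1 (SE 0.28, adjusted p = 0.147), which did not pass, and fell by 0.64 in T3M-4 (SE 0.15, adjusted p = 0.0464). MEPCE shares its locus with an annotated readthrough gene, so some of its reads may have been counted for both.

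AFF1 and AFF4, the scaffolds of the super elongation complexes, differed from the other members: they were not called lower in T>C CPM in either line. AFF1 lies at chr4:86935002-87141039 on the plus strand and AFF4 at chr5:132875395-132963634 on the minus strand. AFF1 T>C CPM in AsPC-1 was 35.1, 32.3, 21.6, 30.4 and 24.5 under DMSO and 53.3, 21.0, 21.1 and 18.9 under NVP-2, with overlap (0.07, SE 0.35, adjusted p = 0.905). That value rests on NVP-2 library 1.1, without which it was −0.45 (adjusted p = 0.254), and with batch-2 controls it was 0.49 and 0.43 (adjusted p = 0.391 and 0.425). The T3M-4 libraries held 14.7, 19.9, 14.4 and 14.2 under DMSO and 46.6, 29.1, 26.9 and 22.2 under NVP-2. There every NVP-2 library was above every DMSO library, but the change of 1.03 (SE 0.35, adjusted p = 0.0524) was just outside the threshold. It was called with DESeq2 (1.08, adjusted p = 0.00410) and with edgeR under RLE scaling (1.07, adjusted p = 0.0439), and without NVP-2 library 2.2 (1.13, adjusted p = 0.0310). The difference between lines was 0.94 (SE 0.50, adjusted p = 0.429).

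AFF4 T>C CPM was 34.2, 31.9, 31.4, 42.3 and 46.3 under DMSO in AsPC-1 and 58.0, 73.6, 33.8 and 30.9 under NVP-2 (0.47, SE 0.31, adjusted p = 0.264; 0.57 and 0.68 with batch-2 controls, adjusted p = 0.246 and 0.143). The T3M-4 values were 26.6, 28.9, 18.7 and 20.9, and 46.9, 36.2, 13.1 and 22.6 (0.38, SE 0.42, adjusted p = 0.543). The NVP-2 libraries of experiment 1 were above all DMSO libraries in both lines, and those of experiment 2 were within or below their range. These T>C CPM values are relative to a smaller pool of new RNA. The labelled share of both genes fell. For AFF1 it went from 24.3% ± 3.73 to 3.55% ± 1.78 in AsPC-1, and the T3M-4 libraries were at 21.1 to 34.4% under DMSO and 5.64 to 9.89% under NVP-2. For AFF4 it went from 29.5% ± 1.75 to 7.65% ± 3.13 in AsPC-1, with T3M-4 at 38.1% ± 4.42 and 8.13% ± 4.66. When T>C reads were scaled by all reads of the library instead, the direction of both turned: AFF1 was at −3.11 and −1.93 and AFF4 at −2.71 and −2.51 in AsPC-1 and T3M-4, against medians over all genes of −3.26 and −3.09. All 9 genes were called lower in both lines under this scaling. The median gene fell as well, so this count does not set the members apart. All reads of AFF1 and AFF4 were not called in either line.

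The response to NVP-2 was not shown to differ between the lines for any of the 9 genes. In T>C CPM, 0 of 9 passed edgeR's interaction test (T3M-4 minus AsPC-1), beside 0.851% of all genes, with 0 of 9 at an unadjusted p under 0.05 and 0 of 9 with DESeq2. In the labelled share it was 0 of 9, beside 1.14%, with CCNT1 at an unadjusted p under 0.05 (−0.85, SE 0.37, adjusted p = 0.326) and 0 of 9 with limma. In all reads it was 0 of 9, beside 0.00599%, with CDK9 (1.18, SE 0.50, adjusted p = 0.504) and HEXIM1 (0.81, SE 0.36, adjusted p = 0.520) at an unadjusted p under 0.05; no other tool was run there. Since AsPC-1 NVP-2 and DMSO differ in batch and T3M-4 ones do not, batch enters this difference too.

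Other genes of the elongation checkpoint were called in both directions in T>C CPM. Of a list of 32 genes (bromodomain proteins, further super elongation complex subunits, NELF, DSIF and PAF subunits, the other transcription kinases and P-TEFb phosphatase and release factors), 27 were tested in AsPC-1, with 3 higher and 6 lower, and 28 in T3M-4, with 5 higher and 6 lower, beside 12.9% higher and 17.6% lower over all genes in AsPC-1 and 12.4% and 14.2% in T3M-4. The list medians were −0.31 and −0.26. All 27 and 26 of the 28 were called lower in labelled share, beside 96% and 91.2% of all genes. Genes called in the same direction in both lines included EAF1, a partner of the ELL elongation factors (−2.89 and −2.46), JMJD6, an oxygenase (−2.26 and −1.34), and CDC73, a PAF subunit (−0.73 and −1.01), all lower. EAF1 had 1 to 7 T>C reads per NVP-2 library in AsPC-1 and 5 to 9 in T3M-4. Under DMSO it had 112 to 195 and 149 to 369, so the size of its change rests on few reads. NELFB, a subunit of the pausing factor NELF (1.29 and 1.99), PPM1G, a phosphatase linked to P-TEFb release from 7SK (1.57 and 1.96), and SUPT5H, the large subunit of DSIF (1.28 and 2.93), were higher relative to other new RNA. Their labelled shares were called lower all the same, with log2 changes of −1.84 and −1.27 for NELFB, −1.72 and −1.11 for PPM1G and −2.11 and −0.78 for SUPT5H. SUPT5H varied widely between libraries. It had 353 to 1539 T>C reads per NVP-2 library in AsPC-1 and 611 to 4284 in T3M-4. Under DMSO it had 665 to 2596 and 1249 to 4707. BRD2, a bromodomain protein, had 0 T>C reads in all 8 NVP-2 libraries, against 0 to 108 per library under DMSO in AsPC-1 and 37 to 142 in T3M-4. It is among the genes counted as lower in both lines. It passed the filter on low counts only through its DMSO libraries, so no size of change is given and the call is weak support.

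Under CB-6644, HEXIM1 had the largest T>C CPM change of the 9 genes in T3M-4 and in AsPC-1 at 12 h, and neither passed the test over all genes. At 12 h in AsPC-1, HEXIM1 T>C CPM was 44.8, 34.0, 18.1 and 23.5 in DMSO libraries 1 to 4 and 95.4, 78.6, 49.0 and 48.8 in the CB-6644 libraries of the same numbers. Every CB-6644 library was above every DMSO library. The fitted change was 1.18 (SE 0.34, unadjusted p = 0.00574, adjusted p = 0.998) with edgeR, and with a replicate block, since same-numbered libraries deviated together, the unadjusted p = 0.000140 and the adjusted p = 0.426. Only 2 of the 4 CB-6644 libraries deviated most like the DMSO library of their own number. HEXIM1 T>C CPM was higher in 4 of 4 same-numbered pairs, 2.29-fold on average, with an exact two-sided sign-flip p = 0.125, the smallest that 4 pairs can give. All reads gave 1.03 (SE 0.35, unadjusted p = 0.0171, adjusted p = 1.00) or 2.09-fold over pairs, and the labelled share was 33.4% ± 2.58 against 30.9% ± 0.684 (0.11, SE 0.10).

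In T3M-4 at 4 h, HEXIM1 T>C CPM was 38.5, 39.8, 54.7 and 48.0 under DMSO and 81.8, 103, 53.8 and 66.7 under CB-6644. The CB-6644 libraries of experiment 1 were above all DMSO libraries, and 1 of those of experiment 2 was within their range. The change was 0.76 (SE 0.23, unadjusted p = 0.00732, adjusted p = 0.994), higher in 3 of 4 pairs, 1.65-fold on average (exact two-sided sign-flip p = 0.25). In AsPC-1 at 4 h it was 0.32 (SE 0.22, adjusted p = 0.979), higher in 4 of 5 pairs, with DMSO at 20.3 to 38.5 and CB-6644 at 27.1 to 47.8. The CB-6644 and NVP-2 contrasts at 4 h share their DMSO libraries.

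**Figure D3:**
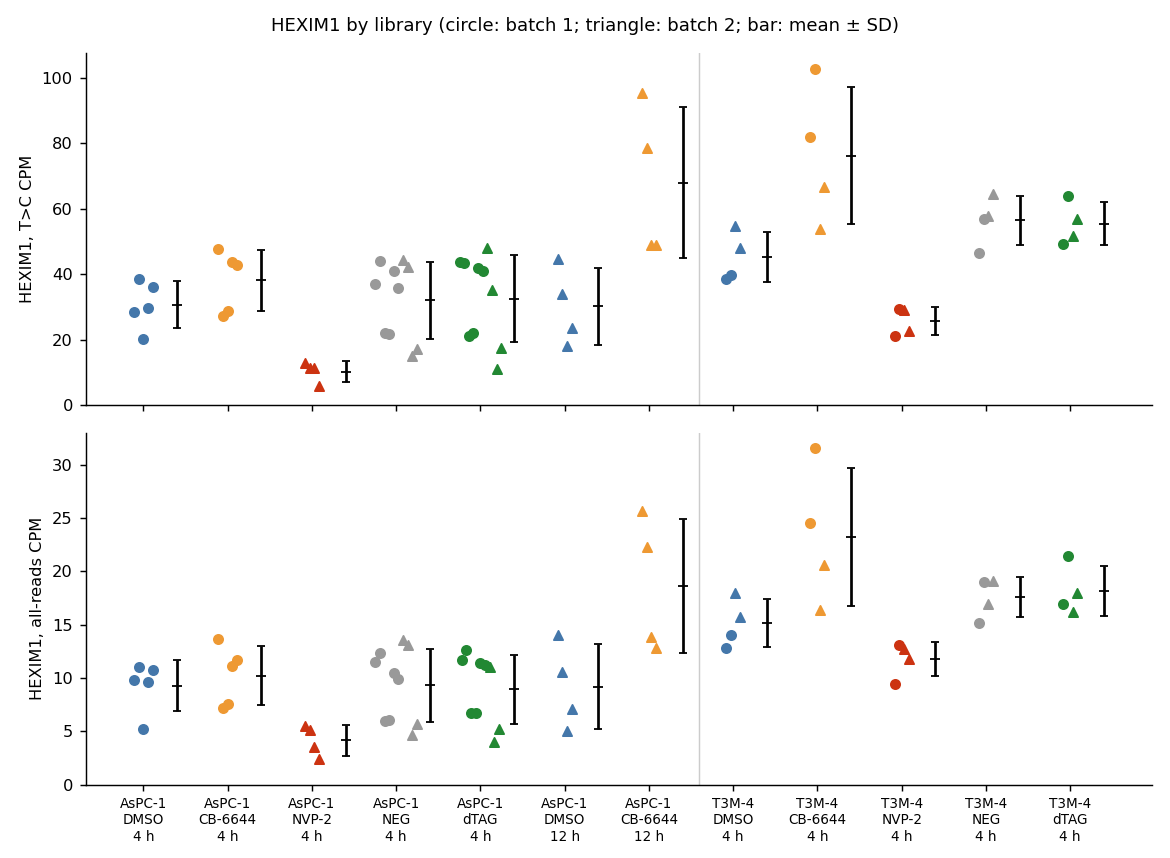
HEXIM1 in every library by group, as T>C CPM (above) and all-reads CPM (below); circles are batch 1 and triangles batch 2 libraries, bars are means ± SD. The CB-6644 libraries of AsPC-1 at 12 h lie above its DMSO libraries in T>C CPM, the NVP-2 libraries lie below DMSO in T>C CPM in both lines, and the NEG and dTAG libraries of AsPC-1 fall into a higher and a lower set.

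For the members together, CB-6644 gave 0 of 9 calls in T>C CPM in each of the 3 contrasts with edgeR, beside 0% of all genes. At an unadjusted p under 0.05 there was 1 of 9 in AsPC-1 at 4 h (LARP7, −0.48), 1 of 9 in T3M-4 (HEXIM1) and 2 of 9 in AsPC-1 at 12 h (HEXIM1, and LARP7 at −0.49). DESeq2 called 0 of 9 in each. In labelled share, 1 of 9 was called, LARP7 in AsPC-1 at 4 h, from 12.2% ± 1.46 to 8.94% ± 0.565 (−0.45, SE 0.09, adjusted p = 0.0211), beside 3.28% of all genes called lower and a median over all genes of −0.22. The LARP7 share was lower in 5 of 5 same-numbered pairs, and so were those of CDK9 and AFF4. Same-numbered libraries did not deviate together in this contrast. limma called 0 of 9. The other share contrasts gave 0 of 9, beside 0% of all genes in T3M-4 and in AsPC-1 at 12 h, with 0 of 9 at an unadjusted p under 0.05 and 0 of 9 with limma. All reads gave 0 of 9 in each contrast with edgeR and DESeq2, beside 0%, 0.0127% and 0% of all genes in AsPC-1 at 4 h, T3M-4 and AsPC-1 at 12 h, with 0, 1 and 1 of 9 at an unadjusted p under 0.05 (HEXIM1 in both).

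Degradation of KLF5 with dTAGv1 left the T>C CPM of the 9 genes without a call in AsPC-1: 0 of 9 with edgeR and with DESeq2, beside 2.4% of all genes, and 1 of 9 at an unadjusted p under 0.05. That gene was AFF4, whose T>C CPM was 24.0 to 37.9 (median 30.9) under NEG and 26.9 to 50.4 (median 36.6) under dTAG. It was higher in 10 of 10 same-numbered pairs, by 0.29 (SE 0.12, adjusted p = 0.301), and was called with the replicate block (0.28, adjusted p = 0.0413), where same-numbered libraries deviated together. Of 9 dTAG libraries examined for this, 4 deviated most like the NEG library of their own number. In labelled share 5 of 9 were called lower, beside 40% of all genes and a median over all genes of −0.26. LARP7 fell by 0.31 (SE 0.07, adjusted p = 0.00473), CCNT2 by 0.29 (SE 0.07, adjusted p = 0.00405), HEXIM1 by 0.27 (SE 0.08, adjusted p = 0.0159), AFF4 by 0.17 (SE 0.07, adjusted p = 0.0407) and CCNT1 by 0.16 (SE 0.06, adjusted p = 0.0495). With the replicate block it was also 5 of 9, with AFF1 called (−0.27, adjusted p = 0.0473) and AFF4 not (−0.16, adjusted p = 0.0510). The share fits used 9 dTAG libraries, since the all-reads column of library 3.1 held the T>C counts of DMSO library 2 at 12 h and was left out. All reads gave 0 of 9, beside 0.797% of all genes, with 0 of 9 at an unadjusted p under 0.05 and 0 of 9 with DESeq2.

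HEXIM1 varied more between AsPC-1 libraries than with dTAG. Under NEG its T>C CPM was 35.8 to 44.3 in libraries 1.1, 1.2, 2.1, 2.2, 3.1 and 3.2 and 14.9 to 22.1 in 1.3, 1.4, 3.3 and 3.4. Under dTAG the same numbers held 35.2 to 48.0 and 11.0 to 22.1. The dTAG change was 0.03 (SE 0.26). The 12 h groups also held higher and lower libraries. Under DMSO, libraries 1 and 2 were at 44.8 and 34.0, and libraries 3 and 4 at 18.1 and 23.5. Under CB-6644 the same numbers held 95.4 and 78.6, and 49.0 and 48.8. What sets these libraries apart was not tested.

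In T3M-4 dTAG gave 0 of 9 calls in T>C CPM, labelled share and all reads with edgeR, beside 0.834%, 0.253% and 0.0191% of all genes, with 0 of 9 in each at an unadjusted p under 0.05. DESeq2 called 0 of 9 in T>C CPM and all reads and limma 0 of 9 in share. HEXIM1 T>C CPM was 46.4, 57.0, 57.8 and 64.7 under NEG and 49.3, 64.0, 51.6 and 56.7 under dTAG, higher in 2 of 4 pairs.

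**Figure D4:**
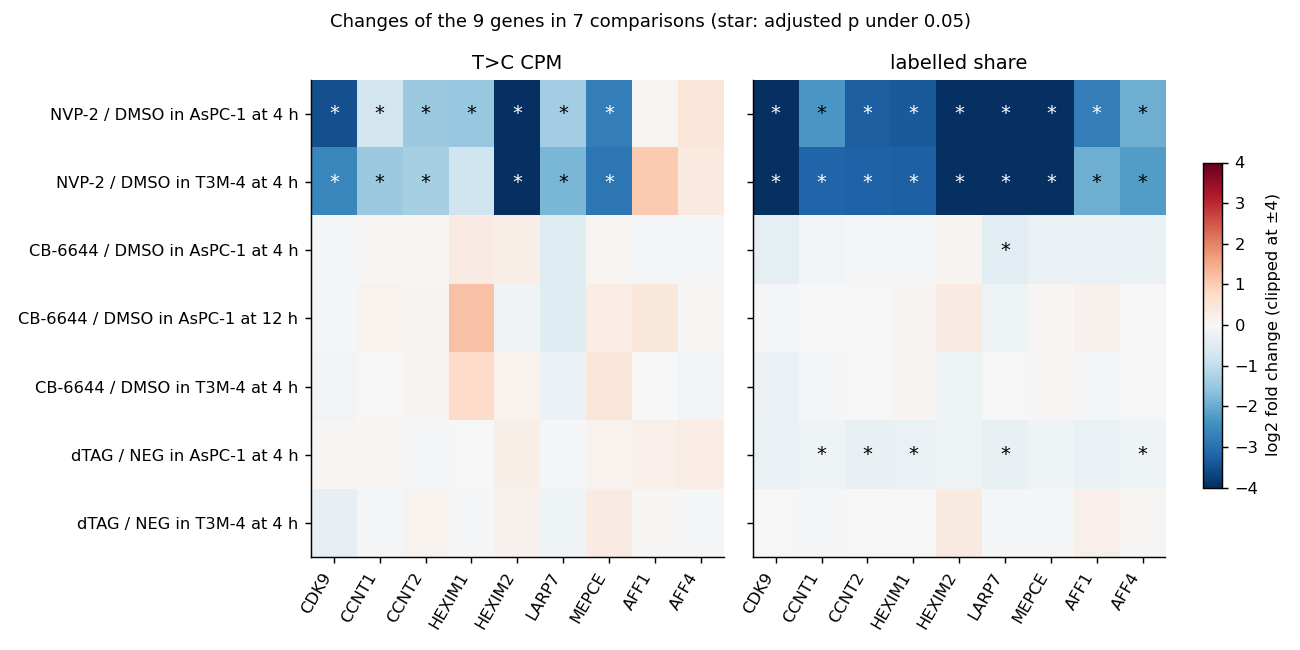
Log2 fold changes of the 9 genes in 7 comparisons (rows), in T>C CPM (left) and labelled share (right), with colours clipped at ±4 and a star where the adjusted p was under 0.05. The stars lie mainly in the NVP-2 rows; HEXIM2 there rests on libraries with 0 reads.

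Across the 12 group means, the genes whose log2 T>C CPM ran most like that of HEXIM1 were TTPAL (Pearson r = 0.974), FAM219A (0.965) and KATNBL1 (0.955), among 6545 genes with at least 20 T>C reads in every group mean. For CDK9 they were CDKN2AIP (0.996), RBM12B (0.993) and SOCS4 (0.991), with CDK9 itself under 20 reads in some groups. The NVP-2 groups are among the 12 points, and depth differs between them.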

How the data were processed

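SLAM-seq libraries (3′ end kit) of both lines were deposited as tables of T>C reads and of all reads per gene. Per the labels and the methods, the authors used slamdunk with its defaults on hg38, took 3′UTR exons from GENCODE v44 as the counted regions and added them up by gene. The deposited values are raw counts without normalization. Overlapping records can count a read more than once: in AsPC-1, 2615 of 22920 genes with reads had only counts that were multiples of a number above 1, and in T3M-4 2844 of 23127. Of the per-sample columns, 1 was not used: the all-reads column of AsPC-1 dTAG library 3.1 had, gene for gene, the T>C counts of DMSO library 2 at 12 h, so this library entered T>C CPM only.

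Counts were tested with edgeR 4.0.16 in R 4.3.3 (glmQLFit, glmQLFTest, filterByExpr, TMM) on the groups compared. For the labelled share, T>C counts were fitted with the log of all reads plus 0.5 as the offset. P-values were adjusted over all genes. DESeq2 1.42.0 and limma 3.58.1 were alternatives, the latter on log2((T>C + 0.5)/(all reads + 1)). SE is the fold change divided by the root of the F statistic. Exact intervals came from scipy 1.17.1. Scripts were tested on simulated data. Named were all 9 members and, of 32 listed elongation genes, those called in both lines with the same sign. Members, lists and tests were chosen with earlier results of these data known.

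Same-numbered libraries deviated together (every pair's correlation above 0.1) in the dTAG contrasts of both lines, CB-6644 in T3M-4 and CB-6644 at 12 h, and in all reads of NVP-2 in T3M-4 (0.189 to 0.605). They did not in NVP-2 in AsPC-1 (−0.0875 to 0.187 in T>C CPM), in T>C CPM of NVP-2 in T3M-4 (0.0790 to 0.366) or in CB-6644 in AsPC-1 at 4 h (−0.0826 to 0.472). The replicate block was an alternative throughout.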

Additional observations from a re-analysis of the deposited data

Results flagged for a closer look

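Of 214 groups of 4 to 10 libraries examined, 12 held a library far from the others by Dixon's 95% criterion, where about 1 in 20 groups would do so by chance. CB-6644 library 1.1 of AsPC-1 at 4 h stood apart for 3 genes: its T>C CPM was 2.16 for CDK9 (other libraries 4.78 to 5.36), 680 for LARP7 (415 to 490) and 38.0 for AFF1 (23.8 to 26.2). NVP-2 library 1.1 of AsPC-1 had an AFF1 T>C CPM of 53.3 (18.9 to 21.1) and a labelled share of 6.18% (2.44 to 3.05%). NVP-2 library 2.2 of AsPC-1 had a CCNT1 labelled share of 10.7% (7.09 to 7.68%). The HEXIM1 labelled share of dTAG library 3.3 of AsPC-1 was 21.4% (26.5 to 29.5%). NEG library 3.3 of AsPC-1 had a MEPCE T>C CPM of 367 (110 to 214) and NEG library 2.2 a HEXIM2 T>C CPM of 35.0 (2.68 to 17.9). In T3M-4, AFF1 T>C CPM was 19.9 in DMSO library 1.2 (14.2 to 14.7), and HEXIM2 in NVP-2 library 1.2 was at 1.85 T>C CPM and a share of 0.971%, from 1 read after division by 8, with the other libraries at 0.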

How the results depend on the processing

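Of 189 counts of members called under alternative settings, 182 stayed within 1.5 times the reported count. In T>C CPM after NVP-2, counts summed per experiment gave 3 of 9 in AsPC-1 (reported 7) and 0 of 9 in T3M-4 (reported 6), where that fit of 2 against 2 called 0 of all genes, and batch 1 alone gave 3 in T3M-4. In all reads after NVP-2 in T3M-4 batch 1 alone gave 0 and batch 2 alone 5 (reported 2). In T>C CPM the replicate block gave 1 for dTAG in AsPC-1 (reported 0), and limma gave 0 for the share of CB-6644 in AsPC-1 at 4 h (reported 1). The cause was not tested. Scaling T>C reads by all reads of the library turned AFF1 to −3.11 and −1.93 and AFF4 to −2.71 and −2.51 in AsPC-1 and T3M-4. Leaving out 1 library gave 5 to 7 and 4 to 7 members called in T>C CPM after NVP-2 in AsPC-1 and T3M-4, 8 to 9 and 9 to 9 in labelled share, and 0 to 0 in T>C CPM for dTAG and CB-6644. In AsPC-1 T>C CPM the call of CCNT1 was lost without DMSO 1.1, 1.3, 2.1 or 2.2 or NVP-2 1.1 or 2.1, and that of HEXIM2 without DMSO 1.2, 2.1 or 2.2 (5 of 9 called without DMSO 2.1 or 2.2). In T3M-4 CCNT2 was lost without DMSO 1.1, 2.1 or 2.2 and CDK9 without DMSO 2.2 (4 of 9), while AFF1 was gained without NVP-2 2.2 (7 of 9). In the unpaired NVP-2 contrasts in T>C CPM the replicate block gave 6 of 9 in AsPC-1 (without CCNT1, −0.71, adjusted p = 0.0920) and 6 of 9 in T3M-4; other changes of calls with the block are given beside their results. Of 674 fold changes of single members under alternatives, 626 kept direction and side of the threshold, 31 lost and 13 gained a call and 4 turned direction. The CDK9 and HEXIM2 values after NVP-2, with 0 to 4 reads a library, are limited by depth.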
